A study of Mus musculus with 10 samples.

Results

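Aquaporins are membrane channels that let water cross the cell membrane along an osmotic gradient, and 6 members of the family were examined here in colonic intestinal epithelial cells (IECs) of mice. The members were taken by gene name from the deposited table, which held 55487 genes: Aqp1, Aqp3, Aqp4, Aqp7, Aqp8 and Aqp11. All 6 names were found. In RhoB-/- mice the transcript of Aqp8 was higher than in WT mice and that of Aqp1 was lower. Aqp4 was lower on average without passing the test, Aqp11 differed little, and Aqp3 and Aqp7 were close to 0 in both genotypes.

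The colon takes back most of the water that reaches it, and water follows the salt that the surface cells absorb. Water moves through the cells by way of aquaporins in the apical and basolateral membranes, and between the cells by way of the junctions. The family divides into the classical water channels (Aqp1, Aqp4 and Aqp8 among these members), the aquaglyceroporins, which also pass glycerol (Aqp3 and Aqp7), and the unorthodox or super-aquaporins, which lie mainly in membranes inside the cell (Aqp11). Several members, Aqp8 and Aqp3 among them, also pass hydrogen peroxide.

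The study asked how loss of RhoB, a small GTPase, alters gene expression in the colon epithelium, and sequenced RNA of IECs from 5 WT and 5 RhoB-/- libraries. All mice were on the C57BL/6J background, untreated, and by the study's general statement 6 to 8 weeks old. The RhoB-/- mice carried the deletion in the whole body. By the study's general methods they were generated at a breeding centre, whereas WT mice were males bought from another supplier. WT littermates are named for its chronic colitis experiment. For the mice sequenced here, the source of WT and the sex of RhoB-/- mice are not given separately. Genotype and origin of the mice therefore cannot be told apart. IECs were shaken from opened colons after chelation with EDTA and DTT, a step that yields a mixture of epithelial cell types with a few other cells and does not separate proximal from distal colon. The values are TPM, a measure of transcript abundance given by RSEM, which are scaled to transcript length and to each library, so levels of different genes can be set side by side and the sequencing depth behind a value is unknown.

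Before the results, the labels were checked on the deleted gene. Rhob TPM was 171 to 389 in the 5 WT libraries and 0.09, 0.10, 0.35 and 0.57 in RhoB-/- replicates 1 to 4. In the library labelled RhoB-/- replicate 5, however, it reached 110.9. The tests of Aqp8, Aqp4, Aqp1 and Aqp3 and several counts of called genes are therefore also given without it. Means, ranges, ratios, sums and correlations include it. Epithelial markers were abundant in every library, with a summed TPM of 9202 to 10567 in WT and 8669 to 13675 in RhoB-/- libraries, and 20261 to 21344 genes were above 0 per library. Genotypes were compared in limma on log2(TPM + 1), for the 12870 genes whose mean TPM reached 1, with Benjamini-Hochberg adjustment, and a gene was called at an adjusted p below 0.05. Of these genes, 995 were called higher and 1734 lower in RhoB-/- mice. This split depends on the scaling, since it became 2010 higher and 1645 lower when each library was centred on its median deviation, and 1131 higher and 3536 lower when mitochondrially encoded genes were taken out before scaling. The median log2 fold change of all tested genes was -0.13, which is the level of a typical gene against which the values below can be read.

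Of the 6 members, 4 (Aqp1, Aqp4, Aqp8 and Aqp11) had a mean TPM above the minimum in each genotype and entered the fit, and Aqp3 and Aqp7 did not. Of the 4, Aqp8 was called higher and Aqp1 lower. In the background, 21.2% of the tested genes were called, 7.73% as higher and 13.5% as lower. The TPM of the genotypes did not overlap for the same 2 of 4 members, and for 14.5% of all tested genes. The study names thresholds of p under 0.05 with a fold above 1.5, and the p was taken here as unadjusted. At these, Aqp4 was added, and 14.7% of the tested genes passed. Aqp4 passed by its fold on the log scale, 1.54, whereas its ratio of mean TPM, WT over RhoB-/-, was 1.47. With so few members these shares are a description of these genes and not of the family.

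**Figure D1:**
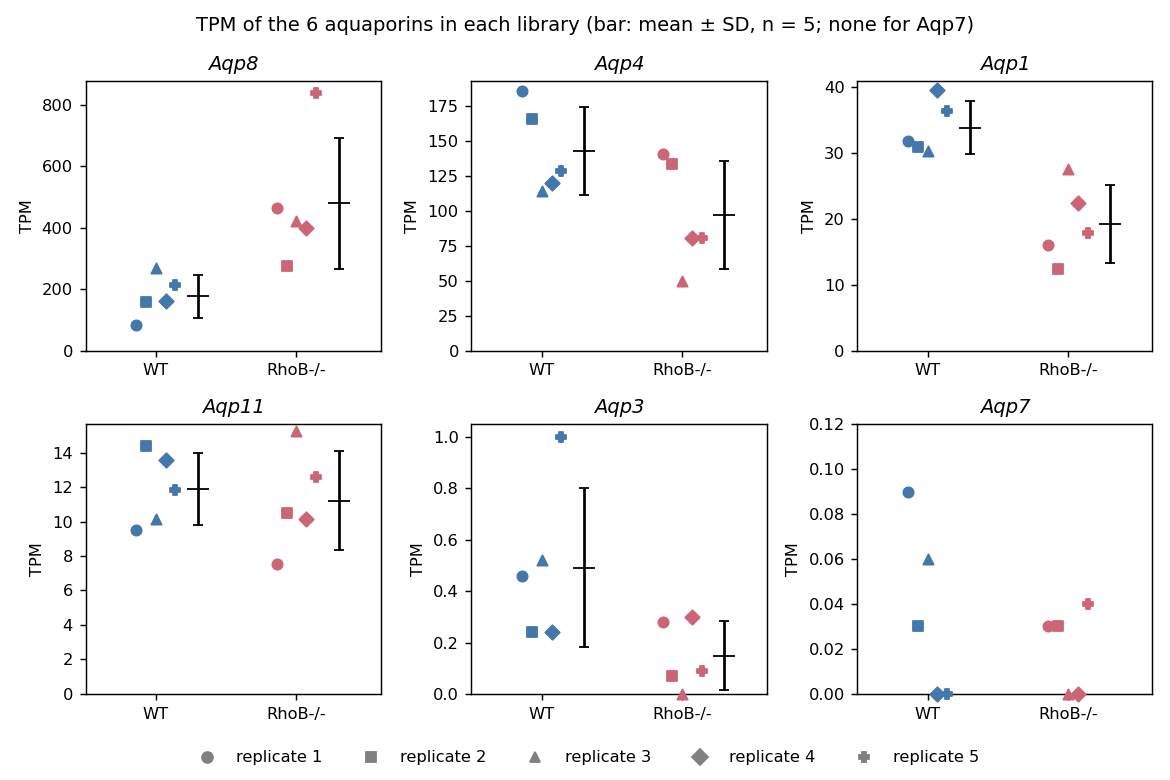
TPM (vertical axes, linear and starting at 0) of each of the 6 aquaporins in the 5 WT (blue) and 5 RhoB-/- (red) libraries, with 1 symbol per library and the mean ± SD beside each group except for Aqp7. All RhoB-/- symbols lie above all WT symbols for Aqp8 (lowest RhoB-/- value 274, highest WT value 270.0) and below them for Aqp1, whereas the groups overlap for the other members.

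Aqp8 is a water channel of the apical side of absorptive colonocytes and had the highest mean TPM of the members in each genotype. The gene (ENSMUSG00000030762) is on chromosome 7 of GRCm38 (123462291 to 123468004, plus strand), and its longest protein-coding transcript has 6 exons and 1487 bases. In WT replicates 1 to 5 its TPM was 83.7, 158, 270.0, 161 and 213. In RhoB-/- replicates 1 to 5 it was 465, 274, 422, 400 and 839. Every RhoB-/- library was above every WT library, although RhoB-/- replicate 2 was above WT replicate 3 by little, and the library labelled RhoB-/- replicate 5 stood well above the others. Mean TPM in WT mice was 177 ± 69.5 (SD, n = 5), and in RhoB-/- mice it was 480 ± 213 (SD, n = 5), so the ratio was 2.71. The log2 fold change was 1.44 (SE 0.32, 95% interval 0.73 to 2.14, limma adjusted p = 0.0103). An exact two-sided permutation test over all ways to label 5 of the 10 libraries gave p = 0.00794, which is the smallest it can give. Without RhoB-/- replicate 5 the log2 fold change was 1.21 (adjusted p = 0.0224). In bulk RNA a higher level per cell and more cells of the type that expresses the gene cannot be told apart.

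Aqp4 is a water channel of the basolateral membrane, known best from astrocytes of the brain and also present in gut epithelium. The gene (ENSMUSG00000024411) is on chromosome 18 of GRCm38 (15389496 to 15410982, minus strand), and has 9 protein-coding transcripts. In WT replicates 1 to 5 its TPM was 186, 166, 114, 120 and 128, and in RhoB-/- replicates 1 to 5 it was 140.5, 133, 50.1, 80.3 and 81.0. RhoB-/- replicates 1 and 2 lay among the WT libraries, and the other three lay below them. Mean TPM in WT mice was 143 ± 31.4 (SD, n = 5), and in RhoB-/- mice it was 97.0 ± 38.5 (SD, n = 5). The log2 fold change was -0.62 (SE 0.26, 95% interval -1.19 to -0.06), with an unadjusted p of 0.0335 and an adjusted p of 0.104 in limma, so the gene was not called. Without the library labelled RhoB-/- replicate 5 the value was -0.58 (adjusted p = 0.184). Markers of enteric glia, another cell type in which Aqp4 could be sought, were near 0. The summed TPM of 4 of them was 0.37 to 0.97 in WT and 0.26 to 0.62 in RhoB-/- libraries. The part of glia in the level of Aqp4 was not tested. An antisense gene, AC133525.2, overlaps Aqp4 over 7896 bases on the other strand, and its listed TPM did not exceed 1.91. The study names an orientation mode for the alignment. Strand use in the counting is not stated, so the reads of both genes may not be separable. The listed TPM then cannot show how many antisense reads were counted for Aqp4, and this was not tested. Mitochondrially encoded transcripts took 26.5% of the TPM in WT replicate 1, which had the highest Aqp4, and 10.3% in RhoB-/- replicate 3, which had the lowest. WT replicate 2, with the second-highest Aqp4, had the lowest such share of the WT group, 17.5%. In the other WT libraries the order of the shares was that of Aqp4. The shares were 19.4%, 22.4%, 10.3%, 17.1% and 12.1% in RhoB-/- replicates 1 to 5. RhoB-/- replicates 1 and 2 had the highest shares and the highest Aqp4 of their group. The link between this share and Aqp4 was not tested. With TPM rescaled without mitochondrially encoded genes the log2 fold change of Aqp4 was -0.69 (adjusted p = 0.0888).

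Aqp1 is a water channel of many tissues, found at high levels in red blood cells and in the endothelium of vessels. The gene (ENSMUSG00000004655) is on chromosome 6 of GRCm38 (55336432 to 55348555, plus strand), with 1 protein-coding transcript of 4 exons and 2627 bases. Its TPM was 31.9, 31.0, 30.3, 39.6 and 36.4 in WT replicates 1 to 5 and 16.1, 12.4, 27.6, 22.5 and 17.8 in RhoB-/- replicates 1 to 5. The WT libraries lay close together, and each RhoB-/- library was below the lowest of them, RhoB-/- replicate 3 by the smallest margin. Mean TPM in WT mice was 33.8 ± 4.0 (SD, n = 5), and in RhoB-/- mice it was 19.3 ± 5.93 (SD, n = 5), so WT was 1.76 times as high. The log2 fold change was -0.82 (SE 0.18, 95% interval -1.22 to -0.43, limma adjusted p = 0.00926), and the exact permutation test gave its smallest p, 0.00794. Without the library labelled RhoB-/- replicate 5 it was -0.81 (adjusted p = 0.0242).

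The other cell types known for Aqp1 were sought by their markers in the same libraries. Of 7 endothelial markers none reached the minimum TPM, and their summed TPM was 1.55 to 2.19 in WT and 1.58 to 2.95 in RhoB-/- libraries. The defining endothelial gene Cdh5, which encodes VE-cadherin, did not exceed 0.03. Red cell transcripts were plentiful, and none of the 5 tested erythroid markers was called, with a median log2 fold change of -0.43. Their summed TPM ranged from 226 to 903 in WT and from 56.0 to 942 in RhoB-/- libraries, with overlap between the genotypes. RhoB-/- replicate 2 had the lowest erythroid sum (56.0) and the lowest Aqp1 (12.4) of all libraries, and RhoB-/- replicate 4 had the highest sum (942) with an Aqp1 of 22.5. The part of endothelial and of red cell transcripts in the level of Aqp1 was not tested.

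**Figure D2:**
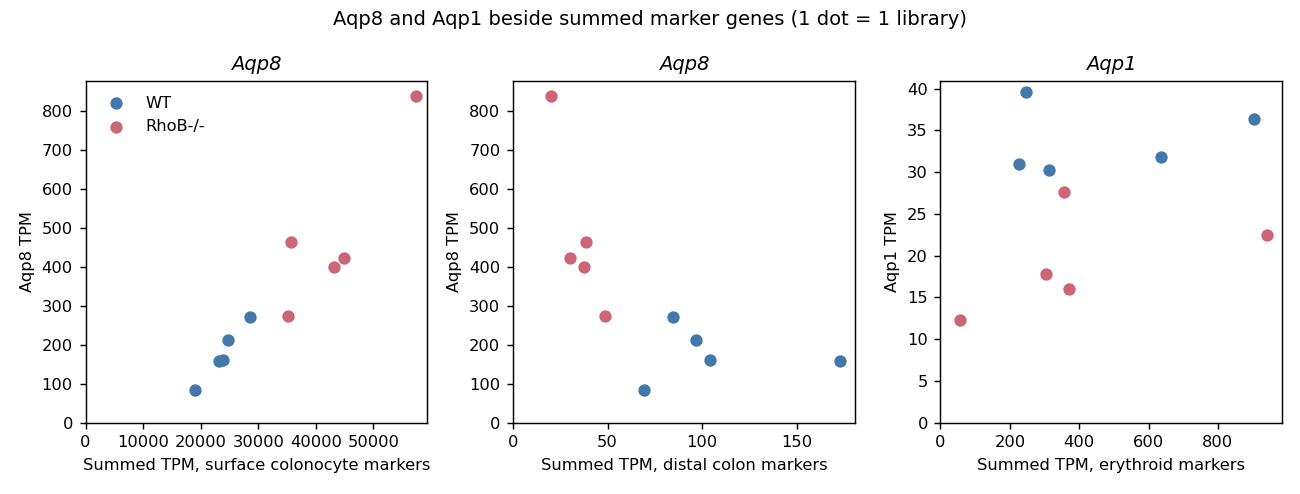
TPM of Aqp8 (left and middle, vertical axes) and Aqp1 (right) against the summed TPM of surface colonocyte, distal colon and erythroid marker genes (horizontal axes), with 1 dot per library, WT in blue and RhoB-/- in red. Aqp8 and the surface colonocyte sum were both higher, and the distal colon sum lower, in all RhoB-/- libraries than in all WT libraries, whereas the erythroid sum overlapped between genotypes.

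The sequences around the start sites of Aqp8 and Aqp1 are shown because these are the members whose transcripts passed the test, in opposite directions. Both are from RefSeq on GRCm38.p6, with 250 bases before and 50 bases after the annotated start, on the plus strand. The Aqp8 window spans chr7:123462044-123462343 and the Aqp1 window chr6:55336049-55336348. The Aqp1 start used by RefSeq lies upstream of the gene start of the other annotation given above. Capitals mark the motif found.
Aqp8: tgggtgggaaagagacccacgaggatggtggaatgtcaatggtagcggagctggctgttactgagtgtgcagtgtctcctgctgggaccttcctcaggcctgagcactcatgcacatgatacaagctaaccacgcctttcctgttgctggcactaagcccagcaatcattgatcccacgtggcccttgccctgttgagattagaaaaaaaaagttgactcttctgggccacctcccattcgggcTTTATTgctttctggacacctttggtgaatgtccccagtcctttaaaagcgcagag
Aqp1: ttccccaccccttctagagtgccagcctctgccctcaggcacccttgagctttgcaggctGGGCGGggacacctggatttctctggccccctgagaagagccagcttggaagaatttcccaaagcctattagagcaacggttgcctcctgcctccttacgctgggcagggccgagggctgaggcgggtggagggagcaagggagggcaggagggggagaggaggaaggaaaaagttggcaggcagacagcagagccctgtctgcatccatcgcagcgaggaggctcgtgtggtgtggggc
The capitals in Aqp8 are TTTATT, a core recognised by Cdx2, the caudal factor of intestinal identity, which ends 1 base before the RefSeq start. The gene start of the other annotation falls within these letters. The same letters occurred on either strand in 19.6% of 32817 promoter windows of this length. The capitals in Aqp1 are GGGCGG, the GC box bound by Sp1, which begins 190 bases before the start and occurred in 35.6% of windows. The other letters searched on both strands were TATAAA (the TATA box, in 13.6% of windows), TTTATG (a second Cdx2 core, 11.9%), CAAAGTCCA (HNF4A, 0.475%) and TTCNNNGAA (STAT, 8.29%). None of these was found in the window of Aqp8 or Aqp1. A match of letters is a description of the window and not a bound site. For Cdx2 itself the log2 fold change was 0.42 (adjusted p = 0.0447), a value that lost its call in 11 of 18 other settings, among them the fit without RhoB-/- replicate 5.

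Aqp11 is an intracellular channel of the endoplasmic reticulum. The gene (ENSMUSG00000042797) is on chromosome 7 of GRCm38 (97724006 to 97738289, minus strand). Its TPM was 9.49, 14.4, 10.1, 13.6 and 11.9 in WT replicates 1 to 5 and 7.56, 10.5, 15.3, 10.2 and 12.6 in RhoB-/- replicates 1 to 5. Both the lowest and the highest value were from RhoB-/- mice, so that the WT range lay inside the RhoB-/- range. Mean TPM in WT mice was 11.9 ± 2.11 (SD, n = 5), and in RhoB-/- mice it was 11.2 ± 2.88 (SD, n = 5). The log2 fold change was -0.09 (SE 0.17, adjusted p = 0.722 in limma), and its 95% interval, -0.47 to 0.28, leaves room for a moderate change in either direction. Its sign turned to 0.02 with centred libraries, to 0.01 with quantile normalization and to 0.03 without RhoB-/- replicate 1.

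The aquaglyceroporins Aqp3 and Aqp7 were near the lower end of what these libraries register. Aqp3, a basolateral channel for water and glycerol (ENSMUSG00000028435, minus strand of chromosome 4, 41092722 to 41098183 on GRCm38), had a TPM of 0.46, 0.24, 0.52, 0.24 and 1.0 in WT replicates 1 to 5. In RhoB-/- replicates 1 to 5 it was 0.28, 0.07, 0, 0.30 and 0.09. The WT values were mostly the higher ones, but the groups overlapped. The difference of mean log2(TPM + 1) was -0.36, with p = 0.0476 in the exact two-sided permutation test, and the p was 0.0794 without RhoB-/- replicate 5. It passed 0.05 in 7 of 15 other settings, so this difference depends on single libraries and on the scaling. Aqp7 (ENSMUSG00000028427, minus strand of chromosome 4, 41033074 to 41048139 on GRCm38), a glycerol channel of fat cells, had a TPM of 0.09, 0.03, 0.06, 0 and 0 in WT and 0.03, 0.03, 0, 0 and 0.04 in RhoB-/- replicates 1 to 5. It was above 0 in 3 of 5 libraries of each genotype, with p = 0.556 in the exact permutation test, and a difference was not detectable at these levels.

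The rest of the family was searched by name to place these members. Of 12 aquaporin genes searched, 12 were in the table, and the 4 in the fit are all members described above. Aqp12 had a TPM of 0 to 0.79 in WT and 0.08 to 0.58 in RhoB-/- libraries, and Aqp9 did not exceed 0.25, Aqp2 0.19 and Mip, the lens channel, 0.03. Aqp5 and Aqp6 were listed at 0 in every library. The epithelium sampled here thus had 4 aquaporin transcripts above a mean TPM of 1.

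The order of levels was Aqp8, Aqp4, Aqp1, Aqp11, Aqp3 and Aqp7 by mean TPM in WT mice. Aqp8 was at a level above 95.4% of the tested genes in WT, Aqp4 above 94.3%, Aqp1 above 76.5% and Aqp11 above 49.2%. In WT mice the ranges of Aqp8 and Aqp4 overlapped, and the ranges of Aqp4, Aqp1, Aqp11 and Aqp3 followed each other without overlap. In RhoB-/- mice the ranges of Aqp8 and Aqp4 no longer overlapped, whereas those of Aqp1 and Aqp11 did. The ratio of Aqp8 to Aqp4 TPM was 0.450, 0.951, 2.37, 1.34 and 1.66 in WT replicates 1 to 5, and 3.31, 2.06, 8.43, 4.98 and 10.4 in RhoB-/- replicates 1 to 5. Aqp4 was thus the most abundant aquaporin in WT replicates 1 and 2, and Aqp8 in the other 8 libraries. The ratios of the genotypes overlapped, since that of WT replicate 3 was above that of RhoB-/- replicate 2.

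The summed TPM of the 12 aquaporin genes was 312 to 426 in WT (mean 367 ± 45.1, SD, n = 5) and 431 to 950.1 in RhoB-/- libraries (mean 608 ± 204, SD, n = 5). Of the 4 members above a mean TPM of 1, Aqp8 alone had a higher mean in RhoB-/- mice. Aqp8 made up 26.8% to 63.4% of this sum in WT mice and 63.6% to 88.3% in RhoB-/- mice. The share of Aqp4 was 26.8% to 59.7% in WT and 8.52% to 30.9% in RhoB-/- libraries. Aqp1 took 7.12% to 11.8% and 1.87% to 5.36%, and Aqp11 took 2.38% to 4.05% and 1.20% to 2.96%. The shares of a sum depend on one another, so a larger share of Aqp8 lowers the others without any change in their own level, as for Aqp11.

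**Figure D3:**
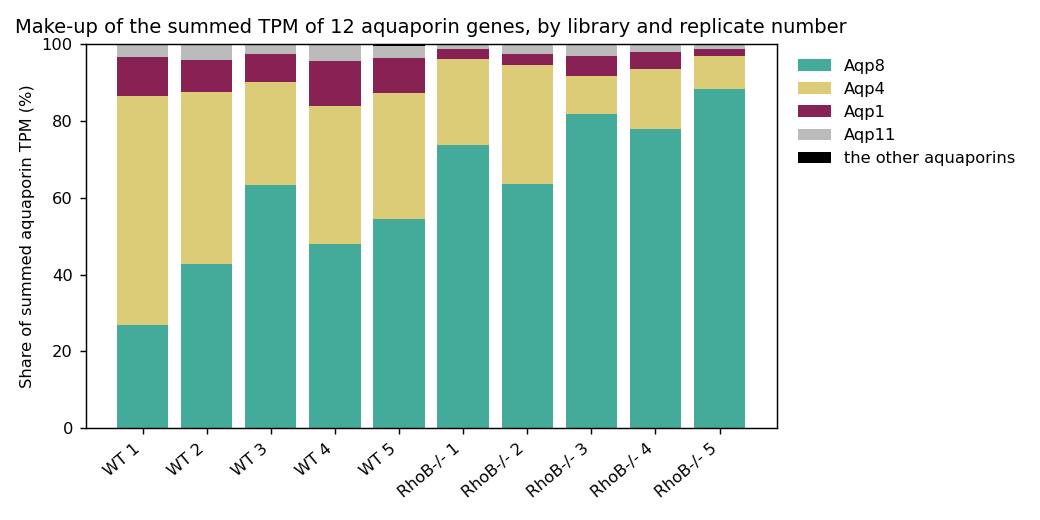
Share (%, vertical axis) of Aqp8, Aqp4, Aqp1, Aqp11 and all other aquaporins in the summed TPM of 12 aquaporin genes, with 1 stacked bar per library (5 WT, then 5 RhoB-/-). The Aqp8 segment runs from 26.8% to 63.4% in WT and from 63.6% to 88.3% in RhoB-/- libraries.

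**Figure D4:**
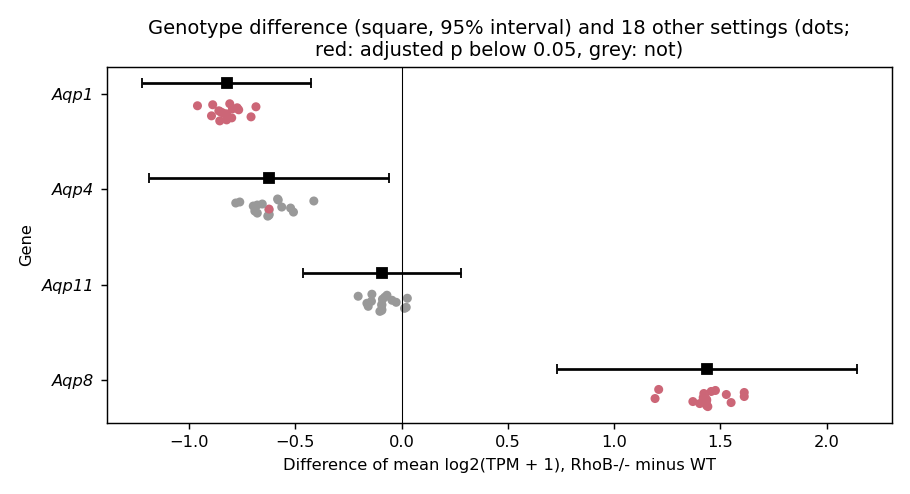
Difference of mean log2(TPM + 1) between RhoB-/- and WT libraries (horizontal axis) for the 4 aquaporins in the fit (vertical axis), as black squares with 95% intervals, and as dots for 18 other settings (red where the adjusted p was below 0.05, grey where not). All dots of Aqp8 (1.19 to 1.61) and Aqp1 (-0.96 to -0.69) are red, 1 of Aqp4 is red, and those of Aqp11 lie on either side of 0.

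The members did not vary together from library to library. After the mean of each genotype was taken away, the correlation of their log2(TPM + 1) over 10 libraries was -0.82 for Aqp1 with Aqp4 and -0.66 for Aqp4 with Aqp11. It was 0.52 for Aqp1 with Aqp11, -0.46 for Aqp4 with Aqp8, and 0.19 and 0.16 for Aqp8 with Aqp11 and with Aqp1. These describe 10 libraries that also differ in scaling and makeup. By the same measure, the 3 genes most like Aqp8 among 7010 genes whose mean TPM reached 10 were Smad7 (r = 0.98), Pdgfa (0.98) and Riok3 (0.98), none of which was called between the genotypes. The most like Aqp1 were Hspd1 (0.97), Pcbd1 (0.96) and Cct7 (0.96), of which Hspd1 (log2 fold change -0.58, adjusted p = 0.0272) and Pcbd1 (-0.55, adjusted p = 0.0370) were also lower in RhoB-/- mice. The most like Aqp4 were Gm10222 (0.93), Fer1l6 (0.90) and mt-Atp8 (0.89), the last a mitochondrially encoded subunit of ATP synthase. Of these, Fer1l6 was called higher in RhoB-/- mice (log2 fold change 0.59, adjusted p = 0.00964), opposite to the sign of Aqp4. The most like Aqp11 were Srsf4 (0.96), 1700123O20Rik (0.95) and Tspan15 (0.94).

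Aqp8 was also read beside markers of epithelial cell types and of colon segments. Of all tested genes, 7.73% were called higher and 13.5% lower. Of 10 markers of surface colonocytes, the mature absorptive cells that express Aqp8, 6 were called higher and none lower, with a median log2 fold change of 1.14 against -0.13 over all tested genes. Their summed TPM, like Aqp8, did not overlap between the genotypes, at 19024 to 28549 in WT and 35131 to 57463 in RhoB-/- libraries. The largest terms of this sum were Car1 and Lypd8. Car1 overlapped between the genotypes and was not called (0.39, adjusted p = 0.203). Lypd8 did not overlap, at 3348 to 6889 in WT and 13357 to 20395 in RhoB-/- libraries. Within the WT group the libraries had the same order in this sum as in Aqp8, from replicate 1 through replicates 2, 4 and 5 to replicate 3, and RhoB-/- replicate 5, with the highest Aqp8, also had the highest sum. Within the RhoB-/- group the orders differed, as replicate 1 had the second-highest Aqp8 (465) and the second-lowest sum (35729). The summed TPM of 10 markers of crypt base and proliferating cells overlapped between the genotypes (267 to 351 in WT and 142 to 340 in RhoB-/- libraries). Of these markers 3 were called lower (Smoc2, Mki67 and Mcm2) and none higher. This number was 7 without RhoB-/- replicate 3, 5 with quantile normalization or without mitochondrially encoded genes, and 1 without RhoB-/- replicate 2, 4 or 5, without WT replicate 2 or 4, or with no filter on low TPM. It was 2 without WT replicate 1 and with the replicate block. The distal colon markers summed to 69.3 to 173 in WT and 20.04 to 48.8 in RhoB-/- libraries, and of 3 tested, Hoxb13 (log2 fold change -1.76, adjusted p = 0.00113) and Hoxa13 (-0.88, adjusted p = 0.0171) were called lower, Hoxa13 losing its call with centred libraries. Of the proximal markers, Osr2 was called higher (0.81, adjusted p = 0.0132) and Cyp2c55 was not (-0.29, adjusted p = 0.366). The part of these differences in the levels of Aqp8, Aqp4 and Aqp1 was not tested.

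Among the other lists, 2 of 8 goblet cell markers were called higher and none lower, beside 7.73% and 13.5% of all tested genes. Of 7 tuft and enteroendocrine markers 1 was called higher (Trpm5) and 4 lower. Without RhoB-/- replicate 5 these were 0 and 3, as Trpm5 and Chga lost their calls, and Trpm5 lost its call in 9 of 17 other settings. Immune markers summed to 2.90 to 6.36 in WT and 10.4 to 29.2 in RhoB-/- libraries, fibroblast markers to 2.98 to 4.04 and 5.72 to 35.1, smooth muscle markers to 0.51 to 4.50 and 0.25 to 2.49, and small intestine markers to 15.1 to 41.4 and 44.9 to 65.1. Most of the small intestine sum was Slc10a2, called higher (log2 fold change 1.49, adjusted p = 0.00205), and Fabp6, not called, whereas the defining markers Lct (at most 0.07) and Apoa4 (at most 0.22) were near 0, and mean Sis TPM was 1.15 in WT and 0.748 in RhoB-/- mice. Of the adipocyte markers, relevant to Aqp7, Adipoq and Lep were listed at 0 in every library, and Cidec, a lipid droplet gene, was the one tested and was called higher (1.06, adjusted p = 0.00819).

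Water that passes Aqp8 follows salt, so the ion transporters that set the gradient were read beside it. For comparison, 7.73% of all tested genes were called higher and 13.5% lower. Of 14 genes of apical sodium and chloride absorption in the fit, 4 were called higher (Slc9a3, Car4, Slc9a2 and Slc9a3r1) and 3 lower (Scnn1b, Car2 and Slc5a8), with a median log2 fold change of 0.10. Slc9a3, the sodium-hydrogen exchanger NHE3 of the apical membrane that Aqp8 shares, had a mean TPM of 46.3 ± 12.9 (SD, n = 5) across WT libraries, and for RhoB-/- libraries the mean was 209.9 ± 55.7 (SD, n = 5; log2 fold change 2.15, adjusted p = 6.5e-05), without overlap. Slc26a3, the chloride-bicarbonate exchanger that works with NHE3, was not called (0.28, adjusted p = 0.324). Of 11 genes of chloride, bicarbonate and potassium secretion, 2 were called higher (Clcn2 and Slc4a2) and 5 lower, with a median of -0.36. Those lower were Best2 (-1.59), a bestrophin channel, Ano1 (-1.11), a calcium-activated chloride channel, Cftr (-0.66), the chloride channel of secretion, Kcnn4 (-0.65) and Slc12a2 (-0.56), the last losing its call without RhoB-/- replicate 5. Ano1 and Slc12a2 also lost theirs without WT replicate 2 or WT replicate 4, which left 3 lower. Among 7 sodium and potassium pumps and partners, with a median of -0.16, Atp12a, the colonic proton-potassium pump, rose (2.01, adjusted p = 0.00328) and Fxyd4, a regulator of the sodium pump, fell (-1.71, adjusted p = 0.0133).

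**Figure D5:**
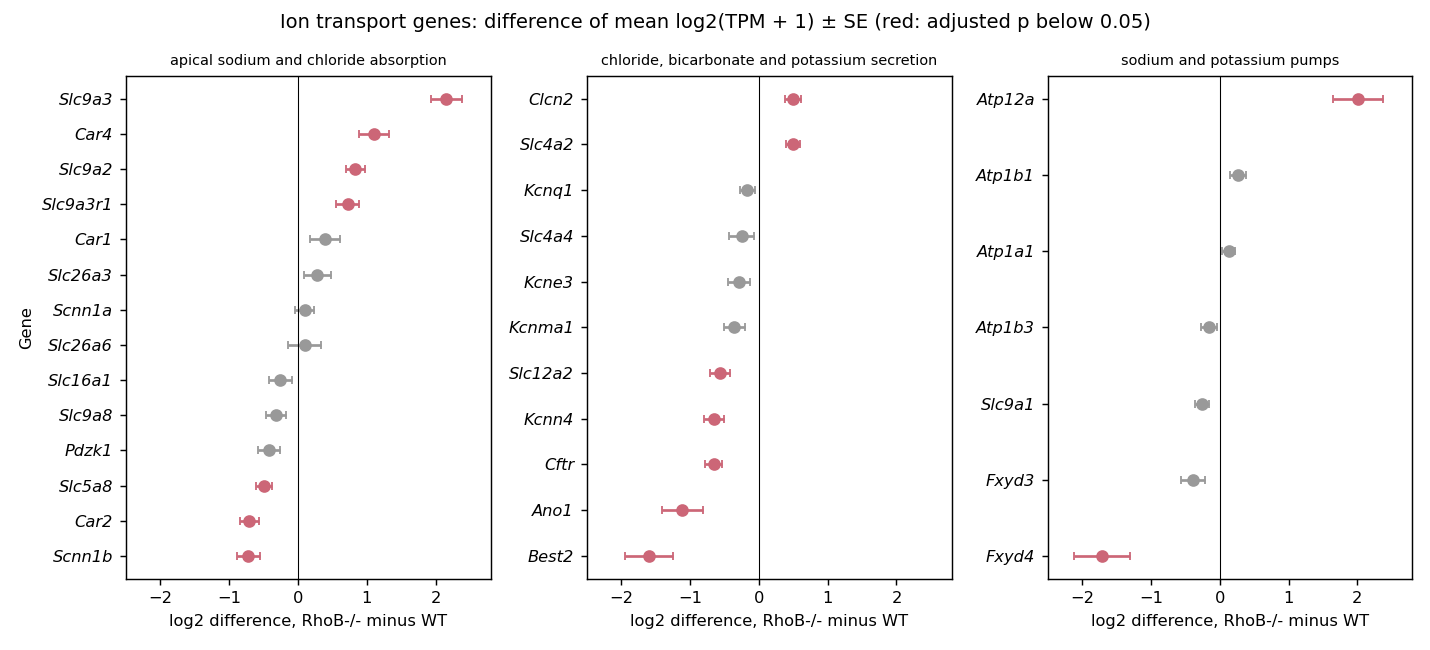
Difference of mean log2(TPM + 1) between RhoB-/- and WT libraries (horizontal axes, points with SE) for genes of absorption, secretion and ion pumps (vertical axes), red where the adjusted p was below 0.05 and grey where not. Slc9a3 (2.15) and Atp12a (2.01) lie farthest to the right, and Fxyd4 (-1.71) and Best2 (-1.59) farthest to the left.

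Partners of the other solutes that Aqp3, Aqp7 and Aqp8 pass were counted in the same way. The share called over all tested genes was 21.2%, against which these counts can be read. Of 16 genes of glycerol and triglyceride handling, 5 were called higher (Lpin2 at 1.15 and Dgat2 at 1.09 with the largest changes) and 5 lower (Gpam at -1.29 and Lpin1 at -1.11), with a median of 0.07. The number lower was 3 without WT replicate 2 or WT replicate 4 and with the replicate block, as Gk5 and Gpd1l lost their calls. Without RhoB-/- replicate 5 the number higher was 4, as Dgat1 lost its call. Dgat1 (0.45, adjusted p = 0.0408) kept its call in 8 of 18 other settings. Glycerol kinase, Gk, which traps glycerol that enters the cell, was not called (0.35, adjusted p = 0.163). Of 21 genes of hydrogen peroxide production and removal, 4 were called higher and 1 lower, with a median of 0.01, and without RhoB-/- replicate 5 these were 2 and 1 of 20. They were 3 and 3 of 20 without RhoB-/- replicate 3, and 6 and 0 with centred libraries. The dual oxidase Duox2, which releases hydrogen peroxide at the apical surface, was higher (2.49, adjusted p = 5.0e-05), as was its maturation factor Duoxa2 (3.19). A further maturation factor, Duoxa1, was also called higher (1.03), but its mean TPM was 0.35 in WT and 1.83 in RhoB-/- mice. Duoxa1 thus passed the TPM filter only through the RhoB-/- libraries, and it was in the fit in 14 of 18 other settings. Prdx5, a peroxiredoxin, was higher (0.50) and Cat, catalase, lower (-0.39), though Prdx5 lost its call in 6 and Cat in 11 of 18 other settings.

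Regulators of aquaporins were counted beside the 21.2% of all tested genes that were called. Of 18 genes known to regulate aquaporins in some tissue, 2 were called higher, Sgk1 and Cdx2, and 1 lower, Prkacb, with a median of -0.05. With centred libraries 5 were called higher and 0 lower, and without RhoB-/- replicate 5 these were 1 and 0. Sgk1 is a kinase of the aldosterone response (log2 fold change 1.25, adjusted p = 0.00404). Prkacb is a catalytic subunit of protein kinase A (-0.73, adjusted p = 0.0239), and neither it nor Cdx2 passed without RhoB-/- replicate 5, RhoB-/- replicate 4, WT replicate 2 or WT replicate 4. Avpr2, the vasopressin receptor that acts on Aqp2 in the kidney, was below the minimum TPM, at 0.16 to 0.65 in WT and 0 to 0.46 in RhoB-/- libraries.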

How the data were processed

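RNA of colonic IECs from 5 WT and 5 RhoB-/- libraries was analysed, with genotype and replicate taken from the labels, which do not say that libraries with the same number share an animal or a day. Nothing in the labels describes how the libraries of a genotype were separated beyond their replicate number, so p-values measure the spread between these samples. The authors sequenced paired-end reads of 150 bp, used SeqPrep and Sickle for trimming, HISAT2 for alignment and StringTie for assembly, and took gene abundances from RSEM. The submitters' processing notes name GRCm38.p6 and also list edgeR, and versions and the annotation release are not given in the sources used here. The deposited TPM values, 2 decimals, were used as given. TPM sums to nearly the same total in each library (971419 to 993229 here), keeps no depth, and a gene that takes much of a library lowers the others.

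The 12870 of 55487 genes whose mean TPM reached 1 were compared with limma 3.58.1 in R 4.3.3 (lmFit and eBayes with trend) on log2(TPM + 1), which understates changes of low genes, with Benjamini-Hochberg adjustment over all tested genes. For the other members an exact two-sided permutation test over all ways to label 5 of the 10 libraries was used. The fit was tested on simulated data with independent noise for each gene. These held no effect shared by the genes of a library, so the check does not cover such effects. Positions are from GENCODE M21 on GRCm38, matched by gene identifier, and promoter windows from RefSeq. Windows on chromosome 18, where Aqp4 lies, were left out of the search and of the motif shares. This left 6 windows for 5 of the 6 members. The members and the gene lists were chosen with earlier results of these data known. Named genes are the members, other aquaporins, up to 4 called genes with the largest change per list, the 3 genes most like each member among those whose mean TPM reached 10, and Rhob. Further list genes were added after their values were seen. They are the remaining called genes of the absorption, secretion, pump, peroxide and regulator lists. Also added were Slc26a3, Gk, Gk5, Gpd1l, Dgat1, Avpr2, Cdh5, Chga, Car1, Cyp2c55, Fabp6, Lct, Apoa4, Sis, Adipoq and Lep. The alternatives were a pseudocount of 0.1, filters on low TPM, quantile normalization, centring, removal of mitochondrially encoded genes, limma without trend, a replicate block, the study's thresholds and each library left out in turn.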

Additional observations from a re-analysis of the deposited data

Results flagged for a closer look

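In 109 groups of 5 libraries examined for a library far from the rest, 5 had one. About 5.45 would be found by chance if the groups were independent. They share the same libraries, so this number does not say whether a given one of them arose by chance. Rhob in the library labelled RhoB-/- replicate 5 was at a TPM of 110.87, against 0.09 to 0.57 in the other RhoB-/- libraries. In the same library Slc9a2 was at 149.8 (the others 101.89 to 112.47), Lpin2 at 92.42 (34.93 to 49.0) and Gpam at 2.47 (2.93 to 3.08). Aqp2 was at a TPM of 0.19 in WT replicate 3, against 0 to 0.05 in the other WT libraries. No member of the aquaporins described above stood apart in this way, including Aqp8, whose highest value (838.55) was also in RhoB-/- replicate 5.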

How the results depend on the processing

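In 18 other settings, Aqp8 (1.19 to 1.61 on the log2 scale, adjusted p 0.00495 to 0.0362) and Aqp1 (-0.96 to -0.69, adjusted p 0.0019 to 0.0287) kept direction and call. Aqp4 ranged from -0.78 to -0.41 and was not called in 17 of them. The replicate block, which pairs libraries by number, left its value at -0.62 with an adjusted p of 0.0230, so that 3 members were called and 1895 genes in all. Libraries with the same number did not deviate together (correlations -0.09 to 0.07, own number the best match for 1 of 5), so the numbers are not taken as pairs. Aqp11 was called in none. Aqp3 did not pass in the unfiltered fit (-0.36, adjusted p = 0.141) or with centring (-0.25, exact p = 0.246), nor without WT replicates 1, 3 or 5 or RhoB-/- replicates 2, 3 or 5 (p = 0.0794, values over all left-out libraries -0.42 to -0.25). The number of low members passing was thus 0 with centring and 0 to 1 with a library left out. The number of genes called was 4667 when mitochondrially encoded genes were removed, and ranged from 1593 (without WT replicate 4) to 3897 (without RhoB-/- replicate 3) with a library left out. It was 1791 without RhoB-/- replicate 1 and 1835 without RhoB-/- replicate 5. The cause was not tested. Centring each library moved the median of all genes from -0.13 to -0.01, and relative to it Aqp8 was at 1.55, Aqp1 at -0.71, Aqp4 at -0.51 and Aqp11 at 0.02. The depth behind each TPM is unknown, which limits Aqp3 and Aqp7 most.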
